A study of Arabidopsis thaliana with 18 samples.

Results

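The comparison described here is the effect of ONO on roots of the *lpcat* mutant that also received lysoPAF. Its members are 6 of the 18 libraries of the series: the 3 libraries labelled as *lpcat* with lysoPAF and ONO, and the 3 libraries labelled as *lpcat* with lysoPAF. The libraries were assigned to the groups by their labels. All genes with enough reads were compared. *lpcat* is a double mutant of Arabidopsis thaliana, lpcat1 with lpcat2-2, in the Col-0 background. RNA came from roots of 5-day-old seedlings and was sequenced from poly(A)-selected libraries. Where given, lysoPAF was at 20 µg/mL and ONO at 50 µM, the dose in the sample labels (the methods text gives another unit for the ONO dose). The groups used were *lpcat* with lysoPAF and ONO, *lpcat* with lysoPAF, wild type (WT, Col-0) with lysoPAF and ONO, WT with lysoPAF, and the untreated *lpcat* and WT controls, with 3 libraries each. No group with ONO alone was analysed here, so the ONO effect was measured only on top of lysoPAF. The labels do not say that the 3 replicates of a group came from separate cultures, and the p-values therefore measure the spread between libraries, which may be technical.

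Phosphatidylcholine is deacylated by phospholipase A (PLA) to lysophosphatidylcholine, and lysophosphatidylcholine acyltransferases (LPCATs) put a fatty acid back, an exchange known as the Lands cycle. In *lpcat* the LPCAT side of the cycle is strongly reduced, and the study measured a small remaining LPCAT activity in its roots. LysoPAF is an ether-linked analog of lysophosphatidylcholine, and ONO (ONO-RS-082) is an inhibitor of PLA2, the activity that releases lysophosphatidylcholine. The comparison asks how the transcriptome of mutant roots grown with the lysolipid analog differed when the inhibitor was also in the medium.

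The genotype was checked first. LPCAT1 (AT1G12640) had 58.4, 66.4 and 62.9 normalized counts in *lpcat* with lysoPAF and ONO, against 56.2, 53.4 and 66.1 in *lpcat* with lysoPAF, while the WT groups averaged between 264 and 312. LPCAT2 (AT1G63050) had 774, 719 and 744 normalized counts with ONO, against 613, 583 and 582 without. The *lpcat* libraries were thus low in LPCAT1 transcript and higher than WT in LPCAT2 reads, where the 3 WT groups averaged 204 to 216. A row counts reads over the whole gene and does not show whether the LPCAT2 transcript is intact.

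Depth was 8681898 to 16767002 reads in genes per library, and the deepest library was *lpcat* with lysoPAF and ONO replicate 1. When principal components were computed from the 2000 genes that varied most, the library labelled *lpcat* control replicate 2 scored 32.5 on the first component, where the other *lpcat* controls scored -31.2 and -34.4 and the *lpcat* lysoPAF libraries 30.9 to 37.7. That library thus lay with the lysoPAF libraries and apart from the group on its label. It enters the comparison of ONO with lysoPAF through the shared estimate of spread only, but also enters every control mean, and values are given with and without it. All 10 root tissue markers tested were above 0 in all 6 libraries, and their summed normalized counts were 9476 to 10290 with ONO and 8788 to 8862 without. The 23 photosynthesis genes used as shoot markers were likewise above 0 in all 6 libraries, with sums of 2572, 5005 and 5820 with ONO and 5438, 2417 and 3493 without. In bulk roots, fewer cells of a type and less RNA per cell cannot be told apart.

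ONO moved more genes up than down. Of 23760 genes tested, 299 were higher in *lpcat* with lysoPAF and ONO than in *lpcat* with lysoPAF and 54 were lower, where a call required a log2 fold change beyond 1 in either direction and an adjusted p below 0.05. These are 1.26% and 0.227% of the genes tested. Log2 fold changes are on the scale of log2 (normalized count + 1), which understates the change of low genes, and adjusted p-values are from limma with Benjamini-Hochberg adjustment. With the adjusted p alone, 843 genes (3.55%) were higher and 596 (2.51%) lower, and the median log2 fold change over all genes was 0.01. The 2 sets of 3 libraries did not overlap for 297 of the 299 genes called higher and for all 54 called lower, which a call of this size nearly requires. Over all genes tested, 15% had all 3 ONO libraries above and 13.0% all 3 below the libraries without ONO. Of the 299, 94 changed by more than 2 on the log2 scale and 12 by more than 3. Leaving out any 1 of the 6 libraries gave 162 to 254 higher and 20 to 44 lower genes. Leaving *lpcat* control replicate 2 out of the fit gave 414 higher and 132 lower. With ONO, replicate 1 was the lowest of the 3 libraries for 59.2% of the 299 genes, against 40.0% of all genes tested.

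Among the largest rises that held in every fit were CYP71A12, HAK5 and the extensin-like gene AT1G26240. CYP71A12 (AT2G30750), a cytochrome P450 of the indole-3-acetaldoxime branch that leads to camalexin and related indolic compounds, had 1829, 2557 and 2675 normalized counts in *lpcat* with lysoPAF and ONO, against 125, 135 and 171 in *lpcat* with lysoPAF. Every ONO library was therefore more than 10 times any library without ONO, and the log2 fold change was 4.02 ± 0.13 (SE, adjusted p = 1.03e-13). HAK5 (AT4G13420), the high-affinity potassium uptake transporter of roots, had 740, 1046 and 1046 normalized counts with ONO, against 39.6, 33.2 and 27.4 without. Its log2 fold change of 4.78 ± 0.42 (adjusted p = 1.03e-06) was the largest among the genes called higher. The cation/H+ exchanger gene CHX17 (AT4G23700), chosen after its values were seen, was also higher, with 522, 647 and 631 normalized counts with ONO against 116, 147 and 129 without (log2 fold change 2.19).

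**Figure D1:**
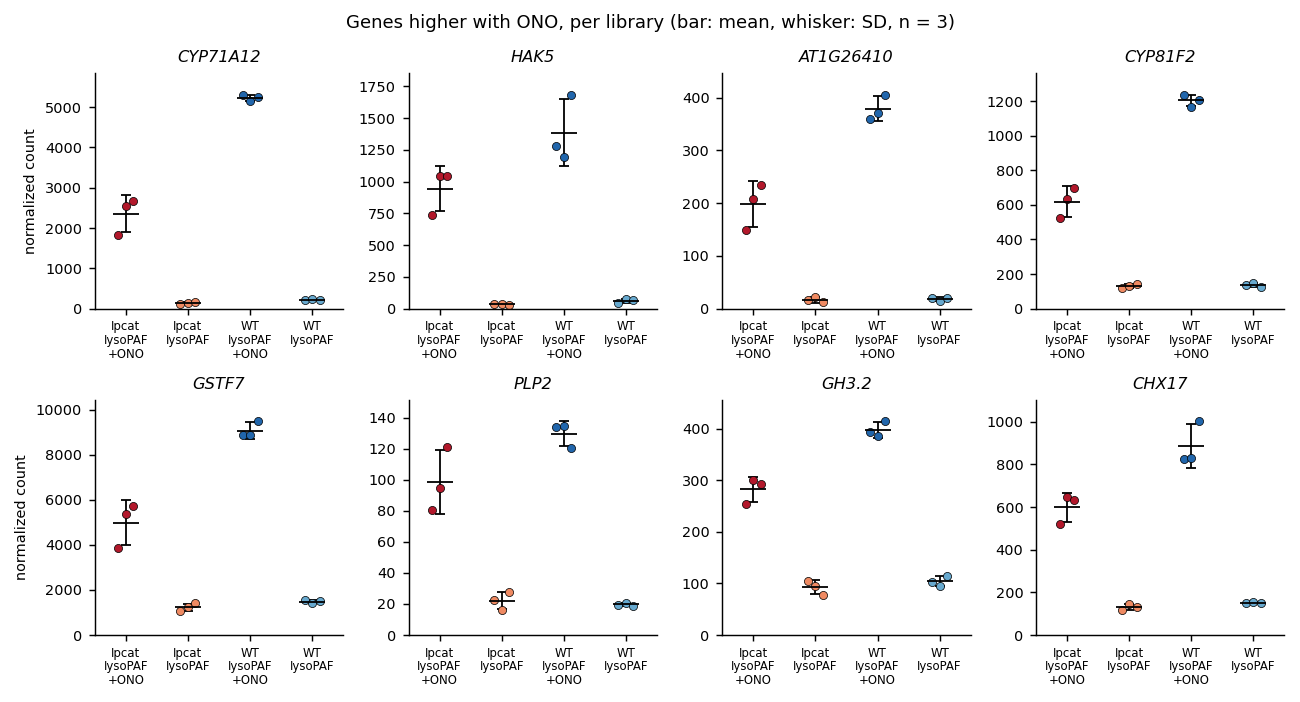
Normalized counts (linear axis from 0) of 8 genes that were higher in *lpcat* with lysoPAF and ONO, with *lpcat* lysoPAF, WT lysoPAF and ONO, and WT lysoPAF to the right. Points are single libraries, bars means and whiskers SD (n = 3), and for CYP71A12 the 3 *lpcat* ONO libraries lie at 1829 to 2675 and the 3 *lpcat* libraries without ONO at 125 to 171.

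Of 15 genes of camalexin and indolic defence tested, 5 rose and none fell, against 3.55% and 2.51% of all genes tested, with a median log2 fold change of 0.58. CYP81F2 (AT5G57220), which hydroxylates an indolic glucosinolate, had 522, 632 and 699 normalized counts with ONO against 117, 129 and 141 without (2.25 ± 0.11 log2, adjusted p = 1.73e-10). MYB51 (AT1G18570), a transcription factor that activates indolic glucosinolate genes, had 360, 523 and 486 against 192, 206 and 208 (1.15 ± 0.13). All 3 ONO libraries were above all 3 without ONO for both genes. WRKY33, a regulator of camalexin genes, and the transporter gene PEN3 (ABCG36, AT1G59870) both rose by 0.58 log2. The WRKY33 call was lost when only the compared libraries were fitted (adjusted p = 0.0575), and that of PEN3 when any of 5 of the 6 libraries was left out, ONO replicate 1 being the exception (0.0517 to 0.079).

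More genes next to these pathways are described from their values, AT1G26410 by the rule for the strongest changes and the others chosen after their values were seen. IGMT2 (AT1G21120) and IGMT4 (AT1G21130), neighbouring methyltransferase genes that act on the product of CYP81F2, were higher by 1.92 and 1.8 log2. AT1G26380, an FAD-linked oxidoreductase of the branch to indole carbonyl nitriles, had 419, 570 and 591 normalized counts with ONO against 94.9, 96.7 and 97.3 without (2.42 ± 0.25 log2). Its neighbour AT1G26410 was higher by 3.5 ± 0.30, from 149.7, 209 and 235 normalized counts with ONO and 15.8, 22.2 and 12.3 without. CYP71A13 (AT2G30770), a near-identical neighbour of CYP71A12, had 22.5, 44.9 and 48.2 normalized counts with ONO and 31.6, 11.1 and 18.9 without, groups that overlap (0.92 ± 0.45, adjusted p = 0.257). Where neighbouring genes are as alike as these pairs, the counting could have split their reads, and their single values are uncertain.

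Several other genes had large rises. The extensin-like gene AT1G26240 had 419, 710 and 586 normalized counts with ONO against 41.3, 22.2 and 17.0 without (4.43 ± 0.37 log2). CYP71B24 (AT3G26230) had 16.4, 20.6 and 19.7 against 0.879, 1.01 and 0 (3.67 ± 0.43), and the WRKY transcription factor gene WRKY41 (AT4G11070) had 21.3, 39.3 and 27.5 against 3.52, 3.02 and 2.83 (2.84 ± 0.56). In these genes every ONO library exceeded every library without ONO by more than 5 times. The receptor kinase gene CRK5 (AT4G23130) was higher by 2.96 log2 and lost its call without *lpcat* lysoPAF replicate 1 (adjusted p = 0.0543) or ONO replicate 2 (0.0722). AT4G12500, a lipid-transfer-like gene, was higher by 3.13 and lost its call without *lpcat* lysoPAF replicate 2 (0.0993) or ONO replicate 1 (0.0544) or 2 (0.0661), and by DESeq2 with shrinkage (0.231). The chitinase gene CHI (AT2G43570), chosen after its values were seen, had 259, 311 and 314 normalized counts with ONO against 61.5, 41.3 and 38.7 without (2.64 ± 0.23).

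EPR1 and CA2 were among the largest rises by fold but rested on 2 of the 3 ONO libraries. EPR1 (AT2G27380), an extensin gene known from the endosperm of germinating seeds, had 5.48, 78.6 and 64.9 normalized counts with ONO against 0.879, 3.02 and 0 without (4.04 ± 0.82 log2). CA2 (AT5G14740), a beta carbonic anhydrase abundant in leaves, had 6.09, 67.4 and 54.1 against 4.39, 0 and 0.944 (3.77 ± 1.03). In both genes ONO replicate 1 lay close to the libraries without ONO. The same library was low in seed and shoot markers: the 8 seed storage markers summed to 26.8, 254.5 and 281 with ONO and to 22.9, 120 and 34 without, and 4 of the 8 were at 0 in at least 1 of the 6 libraries. The part of seed or shoot tissue in these 2 rises was not tested. The EPR1 call was lost without ONO replicate 2 (adjusted p = 0.0507) and in a fit of the compared libraries only (0.0604), and the CA2 call under 10 alternative settings, among them edgeR with TMM factors (0.057).

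**Figure D2:**
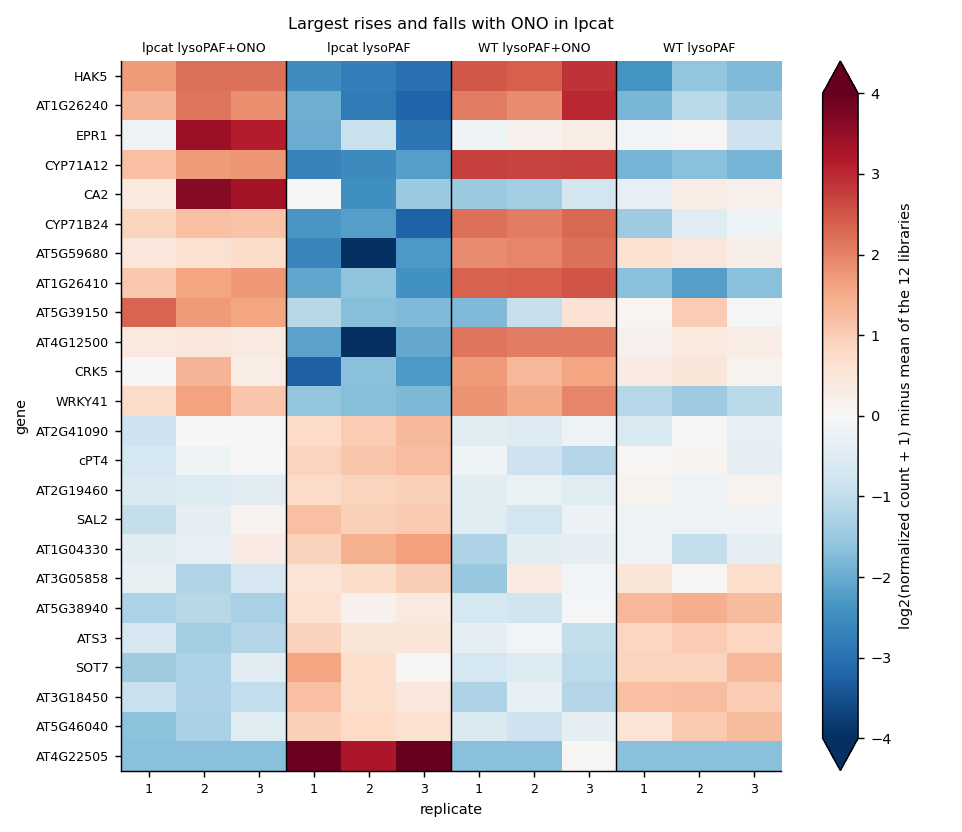
Log2 (normalized count + 1) minus the gene's mean over the 12 libraries shown (colour), for the 12 largest rises and 12 largest falls named by the rule, with the 3 replicates of *lpcat* lysoPAF and ONO, *lpcat* lysoPAF, WT lysoPAF and ONO, and WT lysoPAF side by side. EPR1 and CA2 stand apart from the other rises in that ONO replicate 1 (5.48 and 6.09 normalized counts) lies near the libraries without ONO.

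Promoters are shown for 5 genes of these groups because 4 belong to the indolic defence and P450 rises and 1 to the auxin genes described next. Each sequence is the 250 bases before the annotated start in RefSeq's TAIR10.1, 5′ to 3′ on the gene's strand, in lower case. Capitals mark TTGACC or TTGACT on either strand, the W-box letters that WRKY factors are known to bind, in the first 4, and TGTCTC, the letters known from auxin response elements, in GH3.2. The windows are chr2:13101372-13101621 (minus strand) for CYP71A12, chr3:9599989-9600238 (minus) for CYP71B24, chr5:23187590-23187839 (plus) for CYP81F2, chr1:9128569-9128818 (minus) for AT1G26380 and chr4:17579368-17579617 (plus) for GH3.2. None overlaps another annotated gene.
CYP71A12: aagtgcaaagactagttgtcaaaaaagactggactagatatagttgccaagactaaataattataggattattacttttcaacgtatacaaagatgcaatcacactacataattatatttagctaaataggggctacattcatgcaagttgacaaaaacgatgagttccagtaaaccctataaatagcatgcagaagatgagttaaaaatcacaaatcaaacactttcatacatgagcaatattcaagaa
CYP71B24: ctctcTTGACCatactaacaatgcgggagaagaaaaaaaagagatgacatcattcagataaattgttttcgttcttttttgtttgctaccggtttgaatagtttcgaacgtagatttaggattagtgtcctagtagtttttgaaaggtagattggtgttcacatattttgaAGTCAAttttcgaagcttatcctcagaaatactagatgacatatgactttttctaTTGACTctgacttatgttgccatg
CYP81F2: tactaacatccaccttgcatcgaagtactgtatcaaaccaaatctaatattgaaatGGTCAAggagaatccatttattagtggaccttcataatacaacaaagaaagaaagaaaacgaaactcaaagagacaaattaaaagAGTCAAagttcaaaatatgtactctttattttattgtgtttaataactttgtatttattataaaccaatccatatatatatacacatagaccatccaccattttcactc
AT1G26380: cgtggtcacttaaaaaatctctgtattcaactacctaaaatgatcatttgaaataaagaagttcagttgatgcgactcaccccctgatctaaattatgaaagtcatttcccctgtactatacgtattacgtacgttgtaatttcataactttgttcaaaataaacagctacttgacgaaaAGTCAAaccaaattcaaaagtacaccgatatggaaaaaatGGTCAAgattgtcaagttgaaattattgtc
GH3.2: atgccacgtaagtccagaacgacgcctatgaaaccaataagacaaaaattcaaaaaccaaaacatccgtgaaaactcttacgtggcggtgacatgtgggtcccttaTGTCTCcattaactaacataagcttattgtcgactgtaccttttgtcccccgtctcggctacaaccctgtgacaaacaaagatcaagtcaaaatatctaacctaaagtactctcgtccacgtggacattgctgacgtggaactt

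The W-box letters occurred 3 times in the CYP71B24 window and 2 times each in those of CYP81F2 and AT1G26380. They were not in the CYP71A12 window, which says only that these letters are absent from those 250 bases. Among the genes called higher, 283 had a promoter in the annotation, and 129 of them (45.6%) held TTGACC or TTGACT, against 15 of 48 (31.2%) of the genes called lower and 28.4% of 27443 promoters in all. TGTCTC was in 9.54% of the promoters of genes called higher, 8.33% of those called lower and 10.9% of all. GAANNTTC, the letters of the heat shock element, was in 10.2%, 6.25% and 9.55%, and the G-box CACGTG in 6.01%, 10.4% and 6.49%. The shares over all promoters include genes that were not tested here, and the share among tested genes was not computed. Both strands were searched and the motifs do not contain one another. A match is a string of letters and not a measured binding site.

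Of 26 auxin genes tested 8 rose, none fell and 18 did not pass, with a median log2 fold change of 0.30, where 3.55% of all genes rose. The 4 largest rises were in GH3 genes, whose products join auxin to amino acids. GH3.2 (AT4G37390) had 254, 299 and 293 normalized counts with ONO against 105, 94.7 and 78.4 without (1.60 ± 0.14 log2, adjusted p = 6.78e-07). GH3.6 rose by 1.24 ± 0.11, GH3.5 by 1.18 ± 0.11 and GH3.3 by 1.07 ± 0.22, and in each of them the groups did not overlap. The auxin efflux carrier gene PIN7 rose by 0.52. PIN3 and PIN4, chosen after their values were seen, rose by 0.40 and 0.41, and their calls were lost in 3 and 5 of the 6 fits with 1 library left out (adjusted p up to 0.0875 and 0.168). In 10 genes of the root meristem, 4 rose and none fell, with a median of 0.42. They were the AP2-type stem cell regulators PLT3 (0.61 ± 0.10), BBM (0.63 ± 0.13) and PLT1 (0.45 ± 0.11), and RGI1 (0.44 ± 0.09), a receptor for the peptides that maintain PLT expression. PLT1 lost its call without ONO replicate 1 (adjusted p = 0.107) or *lpcat* lysoPAF replicate 2 (0.116) and in a fit of the compared libraries only (0.112).

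Glutathione S-transferases, which conjugate glutathione to foreign and stress-derived compounds, moved in both directions. Of 40 genes of xenobiotic detoxification tested, 6 rose and 4 fell, against 3.55% and 2.51% of all genes tested, and the median was -0.18. GSTF7 (AT1G02920) had 3848, 5384 and 5747 normalized counts with ONO against 1086, 1223 and 1403 without (2.00 ± 0.12 log2, adjusted p = 7.25e-09). Its neighbour and close copy GSTF6 (AT1G02930) rose by 1.69 ± 0.16, and reads could have been split between the pair. GSTF3 rose by 2.34 ± 0.29, its near-identical relative GSTF2 by 1.26 ± 0.27, GSTU10 by 1.19 ± 0.14 and GSTU12 by 1.56 ± 0.41. GSTU12, GSTU22, GSTU8 and GSTF10 were chosen after their values were seen. GSTU22 fell by 1.16, GSTU8 by 0.75, GSTF8 by 0.56 and GSTF10 by 0.35. The 4 falls and the GSTU12 rise were each lost in 2 or more of the fits with 1 library left out, and without ONO replicate 2 their adjusted p-values were 0.0673 for GSTF8, 0.107 for GSTU8, 0.114 for GSTF10, 0.124 for GSTU22 and 0.125 for GSTU12.

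Of 19 genes of PLA2 and the Lands cycle, 3 rose and none fell, against 3.55% and 2.51% of all genes tested. The median was 0.03. The largest rise was in PLP2 (AT2G26560), a patatin-like phospholipase A induced by pathogens, which had 80.3, 94.5 and 121 normalized counts with ONO against 22.9, 16.1 and 27.4 without (2.12 ± 0.24 log2, adjusted p = 2.77e-05). LPCAT2 rose by 0.33 (adjusted p = 0.0444), a call lost in all 6 fits with 1 library left out (0.0786 to 0.139) and under TMM scaling (0.0526). None of 15 genes of phosphatidylcholine synthesis and none of 16 phospholipase D and C genes passed the test. The smallest adjusted p-values in those lists belonged to CEK2 (0.49 log2, adjusted p = 0.123) and PLDGAMMA1 (0.32 log2, 0.0889). Without *lpcat* control replicate 2 in the fit, 2 phospholipase D and C genes rose, PLDGAMMA1 (0.0019) and NPC1 (0.037). PLDGAMMA1 also passed with the compared libraries only (0.0245). No phosphatidylcholine synthesis gene passed in either fit. In WT, 3 of the 19 PLA2 and Lands cycle genes rose with ONO and none fell, with a median of 0.04. Of all genes 3.72% rose and 1.77% fell in WT.

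**Figure D3:**
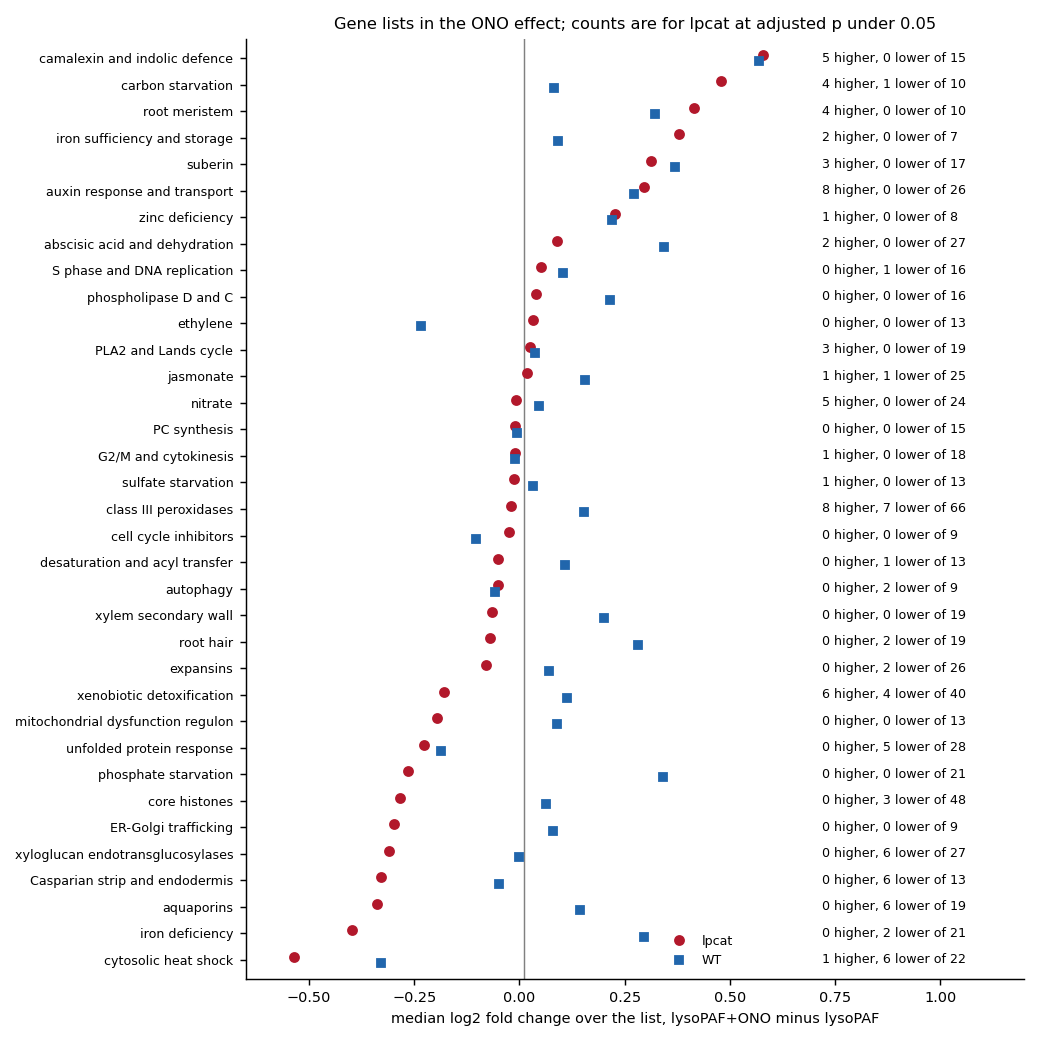
Median log2 fold change of each gene list, lysoPAF and ONO over lysoPAF, in *lpcat* (circles) and WT (squares), with the grey line at the median of all genes in *lpcat* and the counts of *lpcat* members past an adjusted p of 0.05 at the right. In *lpcat* the medians run above 0 for camalexin and indolic defence (0.58) and below 0 for cytosolic heat shock (-0.54), against 0.01 over all genes.

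Several genes with ONO had values between the lysoPAF libraries and the untreated controls. NRT1.5 (AT1G32450), which loads nitrate into the xylem, had 3477, 4012 and 4320 normalized counts in *lpcat* with lysoPAF and ONO, 1173, 1121 and 938 in *lpcat* with lysoPAF, and 11310, 1156 and 10820 in the *lpcat* controls. The log2 fold change for ONO was 1.87 (adjusted p = 0.0315) and that of lysoPAF over control -2.28 (0.0241), or -3.37 without control replicate 2, a setting chosen here after seeing the data. The comparisons share the lysoPAF libraries, and control replicate 2 had a value like theirs. The NRT1.5 call was lost in all 6 fits with 1 library left out, where its log2 fold change was 1.77 to 1.96. Its adjusted p was 5.98e-12 without *lpcat* control replicate 2 in the fit and 0.135 by DESeq2 with shrinkage. AT5G59680, a receptor-like kinase gene, had 125, 141 and 153 with ONO, 14.1, 4.03 and 17.9 with lysoPAF, and 266, 14.2 and 239 in the controls. It was higher with ONO by 3.64 ± 0.68 log2 (adjusted p = 0.0035, and 0.0927 by DESeq2 with shrinkage), and the log2 fold change of lysoPAF over control was -3.14, or -4.49 without control replicate 2.

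The peroxidase gene AT5G64120, chosen after its values were seen, had 4174, 4186 and 4895 normalized counts with ONO, 955, 978 and 1151 with lysoPAF, and 4831, 1080 and 5304 in the controls. SULTR1;2, a sulfate uptake transporter, had 1123, 1020 and 1089 with ONO, 404, 503 and 449 with lysoPAF, and 1649, 448 and 1732 in the controls. Control replicate 2 was near the lysoPAF level in both genes, and the other 2 controls were within or above the range of the ONO libraries. SULTR1;2 lost its call in 4 of the 6 fits with 1 library left out (0.0543 to 0.0612). Its log2 fold change was 1.18 to 1.34 over the 6, and its adjusted p was 2.2e-11 without *lpcat* control replicate 2 in the fit. Of the 299 genes called higher, the median log2 fold change of ONO over control was 1.05 and that of lysoPAF over control -0.52, or 0.88 and -0.71 without control replicate 2, values that come from shared libraries.

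Nutrient and sugar genes gave mixed counts. Of 24 nitrate genes 5 rose, with a median of -0.01, where 3.55% of all genes rose and 2.51% fell. BT2, a nitrate-responsive BTB protein gene, rose by 1.38 ± 0.25 in a call kept in every fit, while the calls of BT1 (1.58), NRT1.1 (0.80), HHO3 (0.36) and NRT1.5 were each lost in 5 or 6 of the 6 fits with 1 library left out. Of 10 carbon starvation genes 4 rose and 1 fell. TPS11, a trehalose phosphate synthase-like gene, rose by 0.74 and SEN1 by 1.08, and ASN1 (AT3G47340), an asparagine synthetase gene induced by low sugar, fell to 111, 81.4 and 109 normalized counts with ONO, against 303, 248 and 186 without (-1.27 ± 0.27). TPS8 and TPS10 lost their calls in all 6 fits with 1 library left out, SEN1 in the fit of the compared libraries only (0.0592) and ASN1 without ONO replicate 2 (0.0604). Of 17 suberin genes 3 rose, FAR1 by 0.72, KCS20 by 0.54 and ABCG2 by 0.48. FAR1 makes fatty alcohols, KCS20 elongates fatty acids and ABCG2 exports suberin monomers. ABCG2 lost its call without *lpcat* lysoPAF replicate 1 (0.0544). The suberin median was 0.31 in *lpcat*. In WT, 7 of the 17 suberin genes rose with ONO and none fell (median 0.37), where 3.72% of all genes rose.

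Among iron genes, 2 of the deficiency response fell and 2 of storage and sufficiency rose, where 2.51% of all genes fell and 3.55% rose. IMA3 (AT2G30766), a small peptide that turns on iron uptake, had 3.04, 1.87 and 0.983 normalized counts with ONO against 40.4, 28.2 and 36.8 without (-3.65 ± 0.76 log2, adjusted p = 0.0072). OPT3 (AT4G16370), an iron transporter of the phloem, had 287, 291 and 317 against 614, 527 and 584 (-0.94 ± 0.20). No ONO library overlapped a library without ONO in either gene. These were the only 2 of 21 iron deficiency genes past the test, with a list median of -0.40, and DESeq2 without shrinkage gave IMA3 an adjusted p of 0.0581. Of 7 iron storage and sufficiency genes, FER1, a ferritin, rose by 0.57 ± 0.09 and VTL5, a vacuolar iron transporter-like gene, by 1.09. VTL5 lost its call in all 6 fits with 1 library left out (0.0616 to 0.0809), where its log2 fold change was 1.07 to 1.11. Without *lpcat* control replicate 2 in the fit its adjusted p was 3.06e-10.

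The falls were fewer and mostly smaller. AT5G46040, a transporter gene of the major facilitator superfamily, had 7.91, 10.3 and 18.7 normalized counts with ONO against 52.7, 47.3 and 41.6 without (-1.93 ± 0.28 log2, adjusted p = 4.74e-04). AT3G18450, of the PLAC8 family, had 13.1 to 17.0 against 75.6, 53.4 and 44.4 (-1.82 ± 0.33). ATS3 had 13.1 to 22.5 against 70.3, 51.4 and 51.0, and AT2G19460 had 28.0, 28.1 and 30.5 against 71.2, 78.5 and 81.2. These 4 genes kept their calls in every fit. AT4G22505, a lipid-transfer-like gene with close relatives, had no reads in the 3 ONO libraries and 47.5, 29.2 and 239 normalized counts without ONO, at least 41.6-fold lower against a floor of 3 reads per library, or at least 15.2-fold without *lpcat* lysoPAF replicate 3 (an alternative chosen after seeing the data). Its call was lost in all 6 fits with 1 library left out, and the untreated *lpcat* controls held 974, 0 and 1139.

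**Figure D4:**
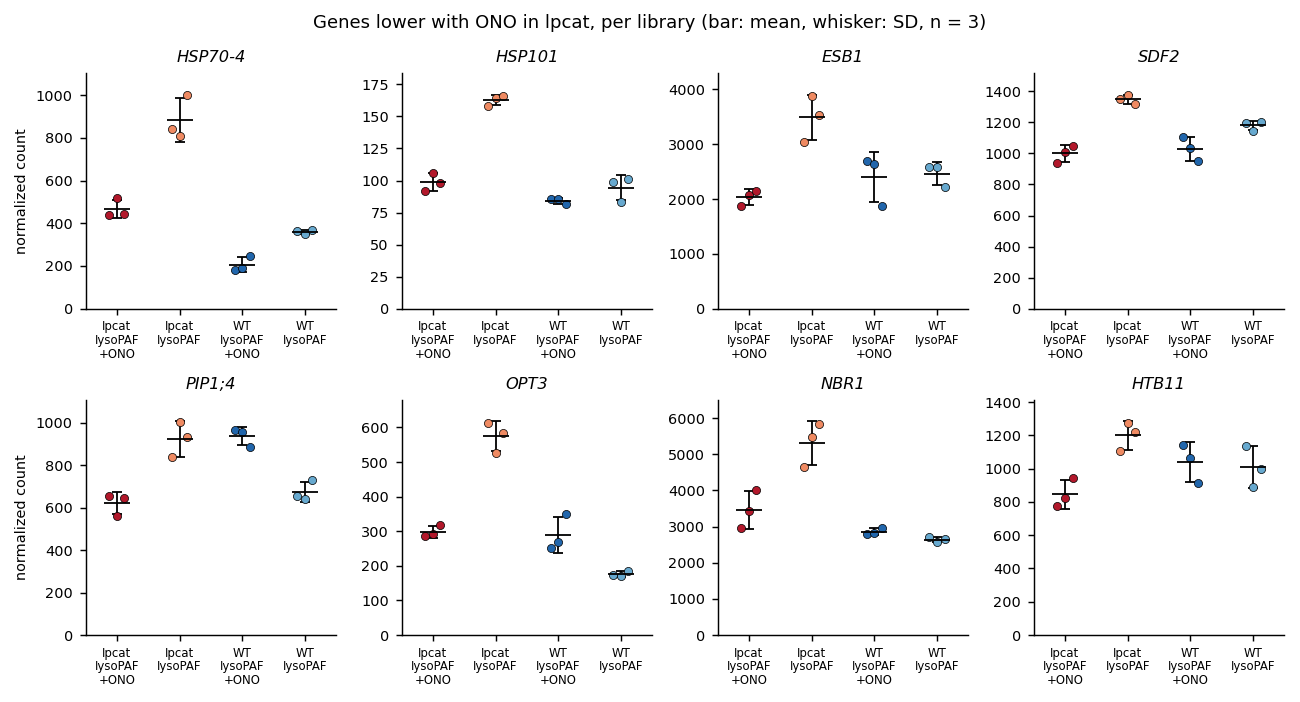
Normalized counts (linear axis from 0) of 8 genes that were lower in *lpcat* with lysoPAF and ONO, with *lpcat* lysoPAF, WT lysoPAF and ONO, and WT lysoPAF to the right. Points are single libraries, bars means and whiskers SD (n = 3), and for OPT3 the 3 *lpcat* ONO libraries lie at 287 to 317 and the 3 *lpcat* libraries without ONO at 527 to 614.

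Some chaperone genes of the cytosol were lower with ONO. Of 22 cytosolic heat shock genes 6 fell, 1 rose and 15 did not pass, where 2.51% of all genes fell. The log2 fold change was negative in 19 of the 22 (median -0.54), against 11434 of 23760 genes tested. HSP70-4 (AT3G12580), a heat-induced chaperone, had 440, 516 and 443 normalized counts with ONO against 843, 809 and 1002 without (-0.92 ± 0.12 log2, adjusted p = 9.67e-05). HSP101, a disaggregase, fell by 0.72, ROF2, a co-chaperone, by 0.69, HOP3, another co-chaperone, by 0.59, HSP90.1 by 0.90 and MBF1C, a heat-responsive coactivator chosen after its values were seen, by 1.27. HOP3 lost its call without ONO replicate 1 (0.0508), HSP90.1 without *lpcat* lysoPAF replicate 3 (0.0559) and MBF1C without *lpcat* lysoPAF replicate 2 (0.0506) or ONO replicate 1 (0.0559). The member that rose was HSFA7A, a heat shock transcription factor gene, with 355, 398 and 339 against 189, 184 and 187 (0.96 ± 0.16). In WT, 4 of the 22 genes fell with ONO and none rose (median -0.33), where 1.77% of all genes fell. None of the 22 passed the test of a difference between the genotypes.

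Genes of the endoplasmic reticulum (ER) stress response moved less. Of 28 genes of the unfolded protein response 5 fell and none rose, against 2.51% and 3.55% of all genes. The log2 fold change was negative in 24 of the 28, against 11434 of 23760 genes tested, and the median was -0.23. SDF2, an ER quality control protein, had 940, 1010 and 1049 normalized counts with ONO against 1347, 1378 and 1317 without (-0.43 ± 0.08 log2). The calreticulin gene CRT1A fell by 0.36 ± 0.07. Its relative CRT1B (0.33) and the calnexin gene CNX2 (0.38) also fell, but their calls were lost in 6 and 5 of the 6 fits with 1 library left out. The transcription factor genes BZIP60 (-0.40, adjusted p = 0.257) and NAC103 (-0.78, 0.231) did not pass. Without *lpcat* control replicate 2 in the fit, BZIP60 passed (0.0187) and NAC103 did not (0.0821). In that fit 9 of the 28 genes fell. None of 9 genes in the list of ER-Golgi and other endomembrane trafficking passed. Most of its members are named in the study's text, which chose them on these samples. Among the genes named there, values ran from -0.92 for PRA1.F1 to 0.39 for SEC31A. In 9 autophagy genes, ATG8A (0.47) and NBR1 (0.62), a cargo receptor, fell, and their calls were lost without ONO replicate 2 (0.0675 and 0.0605). In WT, 4 of the 28 unfolded protein response genes fell with ONO and 1 rose, with a median of -0.19. Of all genes 1.77% fell and 3.72% rose in WT. None of the 28 passed the test of a difference between the genotypes.

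Of 13 genes of the Casparian strip, the lignin band that seals the endodermis, 6 fell, none rose and 7 did not pass, where 2.51% of all genes fell. The log2 fold change was negative in 8 and positive in 5 of the 13, with a median of -0.33. Of all genes tested 11434 were negative and 12237 positive. ESB1 (AT2G28670), a dirigent protein of strip lignin, had 1867, 2074 and 2153 normalized counts with ONO against 3049, 3878 and 3537 without (-0.78 ± 0.12 log2, adjusted p = 8.67e-04). The membrane scaffold gene CASP2 fell by 0.56, CASP4 by 0.52, the peroxidase gene PER64 by 0.36 and CASP1 by 0.33. In a fit of the compared libraries only, CASP2 (0.068), PER64 (0.0614) and CASP1 (0.102) lost their calls, and CASP4 lost its call without *lpcat* lysoPAF replicate 2 (0.0586) or ONO replicate 3 (0.0607).

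Aquaporin genes, which encode water channels, were negative in 18 of 19 cases, and 6 fell (median -0.34). Of all 23760 genes tested 11434 were negative and 12237 positive, and 2.51% fell. PIP1;4 (AT4G00430), of the plasma membrane, had 657, 560 and 645 normalized counts with ONO against 838, 1005 and 932 without (-0.57 ± 0.10 log2, adjusted p = 0.002). PIP2;7 fell by 0.46, PIP2;3 by 0.51 and PIP2;4 by 0.40, and of the vacuolar members TIP2;3 fell by 0.73 and TIP2;1 by 0.48. Apart from PIP1;4, these calls were lost without ONO replicate 2 (adjusted p = 0.089 for PIP2;7, 0.116 for PIP2;3, 0.158 for PIP2;4, 0.11 for TIP2;3 and 0.111 for TIP2;1). Wall-loosening xyloglucan endotransglucosylase genes gave 6 falls and no rise in 27, against 2.51% and 3.55% of all genes, with a median of -0.31. XTH31 fell by 0.60 and XTH8 by 0.49 in every fit, while XTH14, XTH16, XTH18 and XTH27 lost their calls in 5 or 6 of the fits with 1 library left out. Of 48 core histone genes 3 fell, HTB11, HTB4 and HTA10 (chosen after their values were seen), where 2.51% of all genes fell. The log2 fold change was negative in 42 of the 48 (median -0.28). The histone calls were lost without ONO replicate 1 or 2 (0.0616 to 0.2). Class III peroxidase genes, which include PER64, moved in both directions, with 8 of 66 higher and 7 lower, against 3.55% and 2.51% of all genes.

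The other lists had at most 2 members past the test in a direction. RD22, a dehydration-induced gene, rose by 0.97 log2 in every fit, and CYCA2;4, a mitotic cyclin gene, had 872, 857 and 969 normalized counts with ONO against 518, 574 and 489 without (0.77 ± 0.14). RHS13, a root hair wall gene, had 481, 442 and 478 against 775, 745 and 681 (-0.65 ± 0.09). Each of these kept its call when any of the 6 libraries was left out. JAZ1, a jasmonate repressor gene, rose by 0.49, and RSL2, a root hair transcription factor gene, fell by 0.69, calls lost without ONO replicate 2 for JAZ1 (0.068) and without ONO replicate 3 (0.0768) or *lpcat* lysoPAF replicate 1 (0.064) or 2 (0.0896) for RSL2. P5CS1 of proline synthesis, VSP2 of the jasmonate response, NAS2 of metal chelation, ACBP6 of acyl-CoA binding and TSO2 of nucleotide reduction passed the test and lost their calls in 3 or more of the alternative settings. Of 26 expansin genes 2 fell, against 2.51% of all genes. No gene passed among 21 of phosphate starvation, 13 of ethylene, 13 of the mitochondrial dysfunction regulon, 19 of xylem secondary wall and 9 cell cycle inhibitors. Without *lpcat* control replicate 2 in the fit, 1 gene fell in each of these lists but xylem secondary wall, where none passed. In that fit 1 ethylene gene also rose.

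WT roots given the same treatments share no library with the *lpcat* comparison. In WT, 271 genes (1.14%) were higher with ONO and 90 (0.379%) lower, and with the adjusted p alone 3.72% and 1.77% of the genes tested. Of the genes called higher, 110 were shared, which is 36.8% of the *lpcat* genes and 40.6% of the WT genes. Of the genes called lower, 7 were shared, 13.0% of the *lpcat* genes and 7.78% of the WT genes. The 299 genes called higher in *lpcat* had a median log2 fold change of 1.63 there and 0.95 in WT, and 267 of them were positive in WT. The 54 called lower had a median of -1.41 in *lpcat* and -0.30 in WT, and 35 were negative in WT. Over all genes tested the median in WT was 0.0. CYP71A12 (4.52 log2 in WT), HAK5 (4.51), AT1G26410 (4.29), CHX17 (2.54) and GSTF7 (2.61) were called higher in both genotypes.

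**Figure D5:**
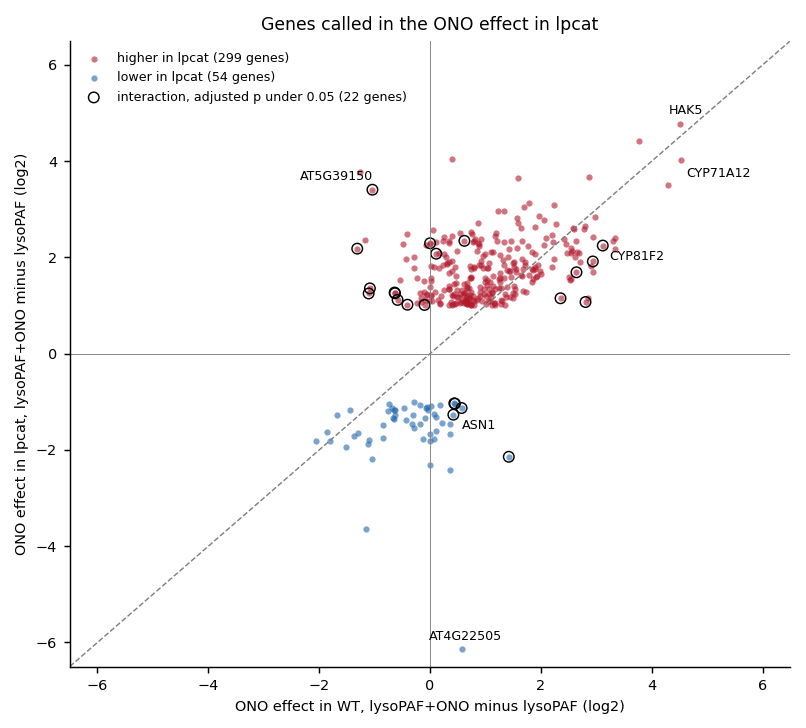
Log2 fold change with ONO in *lpcat* against that in WT, both under lysoPAF, 1 point per gene called in *lpcat*, with the line of equal effects dashed and the 22 called genes that pass the interaction circled. The 299 genes called higher in *lpcat* have a median of 1.63 there and 0.95 in WT.

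The difference between the genotypes was tested as an interaction. It passed for 106 genes with a more positive ONO effect in *lpcat* (0.446%) and 193 with a more negative one (0.812%). Leaving out 1 library of the 12 gave 20 to 132 and 23 to 276 genes, so the counts moved with single libraries. Leaving *lpcat* control replicate 2 out of the fit gave 476 and 703. Among the 299 genes of the interaction, 89 were positive in *lpcat* and negative in WT and 162 were negative in *lpcat* and positive in WT. Both effects passed the adjusted p in 28 of them.

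Several named genes had an interaction with a more positive ONO effect in *lpcat*. AT2G33850 had 2228, 1733 and 1715 normalized counts with ONO against 1607, 1059 and 1046 without in *lpcat*, and 779, 798 and 733 against 1944, 1712 and 1806 in WT. Its effect was 0.63 log2 in *lpcat* and -1.24 in WT, an interaction of 1.87 ± 0.18 (adjusted p = 6.77e-05). AT5G44400 (0.63 in *lpcat*, -0.96 in WT), AT1G03820 (0.59, -1.03) and AGL42 (0.73, -0.55), a MADS-box transcription factor gene, had the same pattern. AT5G39150, a germin-like gene in a cluster of close copies, had 48.7, 30.9 and 28.5 with ONO against 3.52, 2.01 and 1.89 without in *lpcat*, and 1.87, 4.21 and 13.8 against 9.24, 18.9 and 8.41 in WT (interaction 4.44 ± 0.83). The WT libraries overlapped and the WT effect of AT5G39150 did not pass (-1.04 log2, adjusted p = 0.35). The AT5G39150 interaction was lost without *lpcat* lysoPAF replicate 2 (adjusted p = 0.0514) or WT lysoPAF and ONO replicate 1 (0.0535), and those of the other 4 genes were kept in every fit.

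PIP1;4, OPT3 and CYP71A28 ran the other way. PIP1;4 was lower with ONO in *lpcat* by 0.57 log2 and higher in WT by 0.47, with 965, 956 and 888 normalized counts with ONO against 655, 642 and 730 without in WT (interaction -1.05 ± 0.14, adjusted p = 8.99e-04). OPT3 was lower by 0.94 in *lpcat* and higher by 0.70 in WT (interaction -1.64 ± 0.28), and CYP71A28 lower by 0.55 and higher by 0.45 (interaction -1.0 ± 0.13). The peroxidase gene AT5G39580 rose in WT by 2.1 log2, and in *lpcat* its value was -0.59 (adjusted p = 0.174), an interaction of -2.70 ± 0.35. AT3G06460, a fatty acid elongase-like gene, rose in WT by 1.03 and in *lpcat* was at -0.09 (interaction -1.12 ± 0.14).

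Of the 15 genes of camalexin and indolic defence, 2 passed the interaction, CYP81F2 and CYP71A13, both with a smaller ONO effect in *lpcat* than in WT. CYP81F2 was higher by 2.25 log2 in *lpcat* and 3.12 in WT (interaction -0.87 ± 0.16, adjusted p = 0.0131), with 1234, 1167 and 1208 normalized counts with ONO against 136, 150.3 and 128 without in WT. CYP71A13 differed by -2.69, an interaction lost without any 1 of 11 of the 12 libraries (adjusted p 0.0514 to 0.117). Of other lists, the detoxification gene GSTF6 was higher by 1.69 in *lpcat* and 2.64 in WT (interaction -0.95) and the auxin gene GH3.3 by 1.07 and 2.80 (interaction -1.73 ± 0.32). For CYP71A12 the interaction did not pass (adjusted p = 0.202). Genes with an effect in *lpcat* and little in WT included ESB1 (-0.78 and -0.05, interaction -0.73) and FAR1 (0.72 and 0.04, interaction 0.68). The interactions of GSTF6, ESB1 and FAR1 were lost in 10, 9 and 10 of the 12 fits with 1 library left out (adjusted p up to 0.125, 0.14 and 0.108), and that of GH3.3 without *lpcat* lysoPAF replicate 2 (0.0514) or *lpcat* lysoPAF and ONO replicate 2 (0.0507). Of 13 Casparian strip genes none passed in WT (median -0.05), and 1 of the 13 passed the interaction.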

How the data were processed

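Poly(A) RNA from roots of 5-day-old seedlings was sequenced, and the authors deposited 1 table of DESeq2-normalized counts (the normalized count signal per assembled locus, reads divided by a size factor per library) for 18 samples. The submitters' processing notes name STAR 2.4.0j, StringTie 1.0.3, HTSeq 0.6.0, DESeq2 1.12.4 and TAIR10, and the strand setting of the counting is not given in the sources used here. Whole reads could be recovered for 400470 of 400470 values above 0 (100.0%, tolerance 0.001 reads), with depths of 8681898 to 16767002 reads. No column of per-sample values was left unused (0).

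Groups came from the sample labels. Of 35197 rows, 8854 were at 0 everywhere and 23760 with at least 5 recovered reads in all were tested with limma 3.58.1 (R 4.3.3) on log2 (normalized count + 1), with 1 coefficient per group over all 18 libraries, a variance trend and Benjamini-Hochberg adjustment over all genes tested. A call required a log2 fold change beyond 1 in either direction and an adjusted p below 0.05, and list members and interactions at an adjusted p under 0.05. The count test on the recovered reads, edgeR 4.0.16 with TMM factors, called 287 genes higher and 66 lower. DESeq2 1.42.0, other filters, pseudocounts of 0.5 and 5, TMM scaling, fits without single libraries and a fit with the replicate number as a block were also tried. Tables and figures were made with Python 3.11.15, pandas 2.3.3, numpy 2.4.6 and matplotlib 3.10.9.

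The comparison to describe, the 35 gene lists and the families by name were chosen with earlier results of these data known. Genes named were LPCAT1, LPCAT2 and those in the study's text, the 12 strongest rises and the 12 strongest falls of called genes with a nuclear locus, at least 1 CPM and no overlap between the groups, up to 6 list members with the smallest p, or up to 2 where none passed, and the 4 smallest interaction p-values in each direction. Any other gene is marked as chosen after its values were seen. Promoters were read from RefSeq TAIR10.1, in which 33993 rows had a match. With 3 libraries per group, p-values measure the spread between libraries. A few list members are counted with their lists but their own values are not reported here.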

Additional observations from a re-analysis of the deposited data

Results flagged for a closer look

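The genes given here were flagged because the ONO effect in *lpcat* differed from that in WT by the interaction test (adjusted p below 0.05). Values are the ONO effect in *lpcat* minus that in WT, in log2 units, from limma fitted over all genes. Those with a more positive effect in *lpcat* were AT5G39150 (4.44), AGL20 (1.97), AT2G33850 (1.87), AT1G03820 (1.62), AT5G44400 (1.59), AGL42 (1.28), CYCA2;4 (0.83) and FAR1 (0.68). Those with a more negative effect were AT5G39580 (-2.70), CYP71A13 (-2.69), GH3.3 (-1.73), ASN1 (-1.69), OPT3 (-1.64), AP180-like (-1.25), AT3G06460 (-1.12), PIP1;4 (-1.05), IGMT2 (-1.02), CYP71A28 (-1.0), GSTF6 (-0.95), CYP81F2 (-0.87), AT5G17820 (-0.80), ESB1 (-0.73), PIP2;7 (-0.70), TSO2 (-0.65) and XTH14 (-0.62). AGL20 (SOC1), IGMT2, CYP71A13 and the peroxidase gene AT5G17820 were chosen after their values were seen. The AGL20 interaction was lost without *lpcat* lysoPAF replicate 2 (adjusted p = 0.0514), and those of CYCA2;4, AP180-like, ASN1, TSO2, PIP2;7, XTH14, IGMT2 and CYP71A13 in 7 or more of the fits with 1 library left out.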

How the results depend on the processing

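No gene named for its ONO effect in *lpcat* reversed its direction under the alternatives. In *lpcat*, genes higher and lower numbered 94 and 4 by DESeq2 with shrinkage, 146 and 12 at an adjusted p under 0.01, 311 and 92 with the compared libraries only, and 414 and 132 without *lpcat* control replicate 2, against 299 and 54. Leaving out 1 replicate gave 162 to 254 and 20 to 44. In WT, where 271 were higher and 90 lower, the counts were 120 and 19 by DESeq2 with shrinkage, 168 and 40 at an adjusted p under 0.01, 198 to 238 and 46 to 74 without 1 replicate, 154 lower without *lpcat* control replicate 2 and 54 lower with a pseudocount of 5. The interaction gave 106 more positive and 193 more negative genes, but 167 and 382 by DESeq2 without shrinkage, 422 and 580 with the compared libraries only, 476 and 703 without *lpcat* control replicate 2, 13 and 18 at an adjusted p under 0.01, and 20 to 132 and 23 to 276 without 1 replicate. List members higher and lower numbered 47 and 43, against 74 and 79 without *lpcat* control replicate 2, 28 and 18 at an adjusted p under 0.01, and 32 to 38 and 20 to 36 without 1 replicate. Among calls lost in all 6 fits with 1 library left out, those of TPS8, TPS10, CRT1B and LPCAT2 were kept without *lpcat* control replicate 2. Their adjusted p-values in that fit were 3.3e-08, 1.53e-05, 0.00699 and 0.0163. The cause of these shifts was not tested.

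With the replicate number as a block the counts were 303 higher and 62 lower in *lpcat*, 279 and 93 in WT, 115 and 240 for the interaction, and 49 and 45 for list members. Deviations of same-numbered libraries correlated at -0.00826, -0.033 and 0.0531 in *lpcat* and 0.101, -0.0215 and 0.15 in WT over 17411 genes, so the numbers were not taken to pair the samples. Depth limited low genes: a gene with no reads allows up to 3 reads, or 1.83 to 2.95 normalized counts in the ONO libraries of *lpcat*, an upper limit for counting error only.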

Other observations

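Some gene lists had medians of opposite sign in the genotypes without any member passing in *lpcat* when all 18 libraries were fitted. The 21 phosphate starvation genes had a median log2 fold change of -0.27 with ONO in *lpcat*, where none passed, and 0.34 in WT, where 2 rose and 1 fell. Ethylene genes had medians of 0.03 in *lpcat* and -0.23 in WT, with none of 13 passing in *lpcat* and 1 rising in WT. Mitochondrial reads were 0.0502%, 0.0457% and 0.0523% of reads in *lpcat* with lysoPAF and ONO, against 0.089%, 0.129% and 0.128% in *lpcat* with lysoPAF. In WT they were 0.022%, 0.0267% and 0.0224% with ONO, against 0.0417%, 0.081% and 0.0391% with lysoPAF. The *lpcat* controls had 0.027%, 0.174% and 0.027%. All these libraries were poly(A)-selected.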
